A study of Mus musculus with 44 samples.

Results

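The comparison is the late inner cell mass (ICM) against the early ICM in Sox2 Ctrl embryos, the control embryos of the *Sox2* mouse line. Its members are 8 of the 44 ATAC-seq libraries of the series, 4 early and 4 late, chosen by their labels, and every one of the 152393 peaks was compared. Sox2 Ctrl embryos came from *Sox2* heterozygous males that carry an EGFP-marked null allele and from floxed females with ZP3-Cre, a Cre active in the growing oocyte. They therefore had a deleted maternal copy and an intact paternal copy of *Sox2*, lacked maternal Sox2, and were told apart from KO littermates by the absence of EGFP. The strain was B6C3F1. Embryos of superovulated females were collected at embryonic day (E) 2.5, cultured with 1 μM of the MEK inhibitor (MEKi) PD0325901 to the early (E3.75) or the late (E4.5) blastocyst, and stripped of their trophectoderm by immunosurgery, an antibody and complement treatment that lyses the outer cells. A library was a pool of 20 to 40 ICMs. The further groups were the 3 others with ICMs, each with 4 libraries per stage and the same culture: Sox2 KO embryos, which lack maternal and zygotic *Sox2*, Oct4 Ctrl embryos, which lack the maternal copy of *Pou5f1* (the gene of Oct4), and Oct4 KO embryos, which lack maternal and zygotic *Pou5f1*. No ICM was analysed here without MEKi or with both *Sox2* copies and both *Pou5f1* copies intact, so the stage change was measured only with the inhibitor and without a maternal copy, and longer time in the inhibitor cannot be told apart from the later stage.

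The ICM is the inner part of the blastocyst, from which the epiblast and the primitive endoderm segregate while the blastocyst expands. Naive pluripotency is the state of the preimplantation epiblast and is held by a network of transcription factors such as Oct4, Sox2, Nanog, Esrrb and the Klf factors, whereas the primitive endoderm depends on FGF and MEK signalling and on GATA factors. Inhibition of MEK steers ICM cells towards the epiblast, and the series used it for that purpose. ATAC-seq reads open chromatin from the places where the transposase Tn5 inserts, and such open regions are largely promoters and enhancers.

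Each value is an rlog, a log2 scale on which the insertion counts of all 44 libraries were put together by the authors, so a difference of 1 is a 2-fold difference that is shrunken where a peak has few insertions. The insertion counts were not used here and the depth behind a value is unknown. Among the 8 libraries the median rlog lay between 2.44 and 2.59. Pearson correlation over all peaks (given as a description, since neighbouring peaks are related) was 0.786 to 0.856 between early libraries, 0.842 to 0.878 between late libraries and 0.795 to 0.872 between stages. Early replicate 4 stood apart, with its highest correlation to another early library at 0.795, and results are given with and without it below. As a check of the labels, the peak just upstream of *Sox2* (chr3:34649826-34650025, GRCm38) lay between 1.96 and 3.28 in the 8 Sox2 Ctrl libraries and between 0.49 and 1.19 in the 8 Sox2 KO libraries, while the peak over its coding exon (chr3:34650925-34651124) overlapped, at 1.95 to 3.81 and 1.14 to 2.91. Peaks within 10 kb of naive pluripotency genes averaged 3.44 to 3.84 per library. The ranges were 2.62 to 2.79 for primitive endoderm genes, 2.96 to 3.49 for trophectoderm genes and 3.35 to 3.85 for housekeeping genes. The naive range thus lay above that of primitive endoderm and overlapped those of trophectoderm and housekeeping genes. Such a level therefore does not by itself mark a cell type.

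Between the early and the late ICM, 907 of the 152393 peaks (0.595%) changed at an adjusted p under 0.05 in limma. Of these, 723 peaks (0.474% of all) became more open and 184 (0.121% of all) less open, so increases made up 79.7% of the calls. The median difference over all peaks was 0.03, close to no shift. The 723 increased peaks went from a median rlog of 1.66 to 3.58, with differences from 0.59 to 3.53 and a median of 1.73, and the 184 decreased peaks went from 3.68 to 2.03, with a median difference of −1.62 (−2.39 to −0.82). In 601 of the increased peaks (83.1%) and 150 of the decreased peaks (81.5%) every late library lay beyond every early library, which was so in 5.61% of all peaks. The same 8 libraries gave the calls, so the higher shares follow from the selection and are no separate support. At an unadjusted p under 0.05, 17663 peaks differed. Quantile normalization gave 647 increases and 288 decreases, a share of 69.2% upward. The count also depended on the libraries, falling to 320 without early replicate 2, 527 without early replicate 3, 198 without late replicate 1 and 193 without late replicate 2, and it was 969 without early replicate 4. In all 8 such leave-outs 102 peaks stayed called, 96 upward and 6 downward, and none of the 907 changed sign in any of them. Where early and late libraries do not overlap, leaving 1 out cannot change the sign. A fit to the 8 libraries alone called 596 peaks, and windows with a mean rlog from the median upward gave 275 when tested alone. Taken over whole profiles, the stage means lay 0.980 times as far apart as a library typically lay from the mean of its stage, as a root mean square (exact permutation test over the 70 arrangements of the 8 libraries, two-sided, p = 0.0571, where the smallest possible is 0.0286). Without early replicate 1 it was 1.09 and without early replicate 4 it was 1.14, each at the smallest p that 35 arrangements allow (0.0286), while in the other 6 leave-outs it was 1.01 to 1.09 with p from 0.0571 to 0.114, the highest without late replicate 2.

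**Figure D1:**
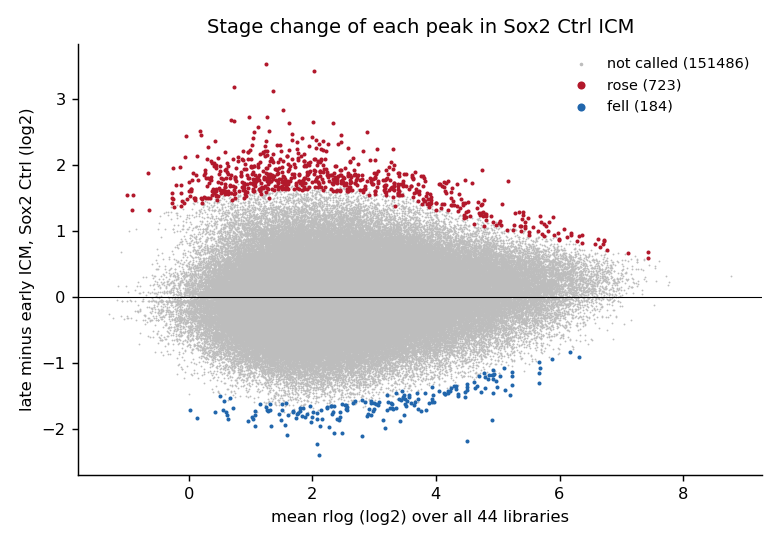
Late minus early difference in Sox2 Ctrl ICM (log2) against the mean rlog over all 44 libraries, 1 point per peak, with the 723 peaks that rose in red, the 184 that fell in blue and all others in grey. Increases outnumber decreases from the least open peaks (272 against 25 in the lowest of 5 equal bins of mean rlog) to the most open (142 against 64).

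Both kinds of changed peak lay mainly away from promoters. Within 100 bp of a transcription start site were 32 of the increased peaks (4.43%) and 2 of the decreased peaks (1.09%), against 7.80% of the peaks that were not called. Without each library in turn these shares were 1.83% (without late replicate 2) to 6.37% (without early replicate 1) of the increased and 0% to 3.45% of the decreased peaks, the latter without late replicate 1. Intergenic windows made up 49.1% of the increased, 50.0% of the decreased and 39.6% of the other peaks, and introns 40.4%, 41.8% and 43.8%. The decreased peaks had a median GC content of 46.0%, the increased and the other peaks 50.0%. Across 5 equal bins of all peaks by GC content the median difference went from −0.09 in the bin poorest in GC to 0.13 in the richest, and 83 of the 184 decreased peaks lay in the poorest bin and 7 in the richest. The increased peaks numbered 137, 139, 158, 201 and 88 from the poorest to the richest bin. The part of base composition in the result was not tested. On chromosome X lay 4.29% of the increased, 1.09% of the decreased and 2.90% of the other peaks.

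The 5 largest increases began from early rlog values of −0.31 to 2.56. The peak with the largest difference (chr4:144807193-144807392, intergenic, nearest start site *Gm438* at 20.7 kb) had an rlog of −0.06, 0.36, 0.21 and 1.37 in the early and 3.97, 4.79, 3.44 and 3.80 in the late libraries, a difference of 3.53 (standard error 0.46, adjusted p = 1.97e-07). The peak 7.7 kb from *Cd38*, the gene of an enzyme that degrades NAD (chr5:43860760-43860959), read 1.17, 0.82, 0.63 and 1.71 early and 5.00, 4.39, 4.01 and 4.59 late, a difference of 3.41. The lowest late library lay more than 2 log2 units above the highest early library at both. Both are copies of a repeated sequence described further on. Near *Sqle*, the gene of squalene epoxidase in sterol synthesis (chr15:59302241-59302440, 12.7 kb away), the values were −0.31, 0.04, −0.09 and 0.62 early and 3.97, 3.39, 2.745 and 2.86 late, a difference of 3.17 (adjusted p = 1.97e-07). Every early library was low at this window and every late one high, and it rose in Oct4 Ctrl as well (2.67, adjusted p = 4.54e-05). The peak 1.2 kb from *Fbxw10*, in an intron of *Trim16* (chr11:62845805-62846004), rose by 3.11 from 1.93, 1.07, 0.26 and 0.34 to 4.499, 4.64, 3.20 and 3.70. The peak 66.5 kb from *Nupl2*, a nucleoporin gene (chr5:24244277-24244476), rose by 2.83 from 2.56, 2.01, 0.94 and 1.04 to 4.54, 4.97, 4.21 and 4.18. All 5 stayed called in each of the 8 leave-outs, with adjusted p-values of at most 0.000955.

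The 5 largest decreases began from early rlog values of 2.37 to 5.25. The peak 14.7 kb from *Fibin* (chr2:110377766-110377965) fell by 2.39, from 3.37, 3.11, 3.41 and 3.35 to 0.57, 1.08, 1.22 and 0.81 (standard error 0.45, adjusted p = 0.00169). An intronic peak of *Pcca*, a subunit of the mitochondrial propionyl-CoA carboxylase (chr14:122717245-122717444), fell by 2.22, from 3.34, 2.72, 3.17 and 3.54 to 0.57, 0.59, 1.93 and 0.80. In both, every late library was lower than every early one, which the rule for naming them required. An intronic peak of *Naaladl2* (chr3:24568168-24568367) fell by 2.18, from 4.10, 5.11, 4.45 and 5.25 to 2.86, 1.76, 2.22 and 3.33 (adjusted p = 1.75e-05), and fell also in Oct4 Ctrl (−1.71, adjusted p = 0.00272) and Sox2 KO (−1.43, adjusted p = 0.0223). The intronic peak of *Pde3a*, a cyclic nucleotide phosphodiesterase gene (chr6:141329338-141329537), fell by 2.11, from 2.77, 4.54, 4.16 and 5.00 to 1.25, 2.20, 2.60 and 1.98, and in *Tsc22d2* (chr3:58454918-58455117) the fall was 2.08, from 2.37, 2.87, 2.57 and 2.54 to 0.37, 0.39, 0.70 and 0.57. The call near *Pde3a* was lost without late replicate 1 (adjusted p = 0.0779), and the other 4 calls stayed in every leave-out.

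**Figure D2:**
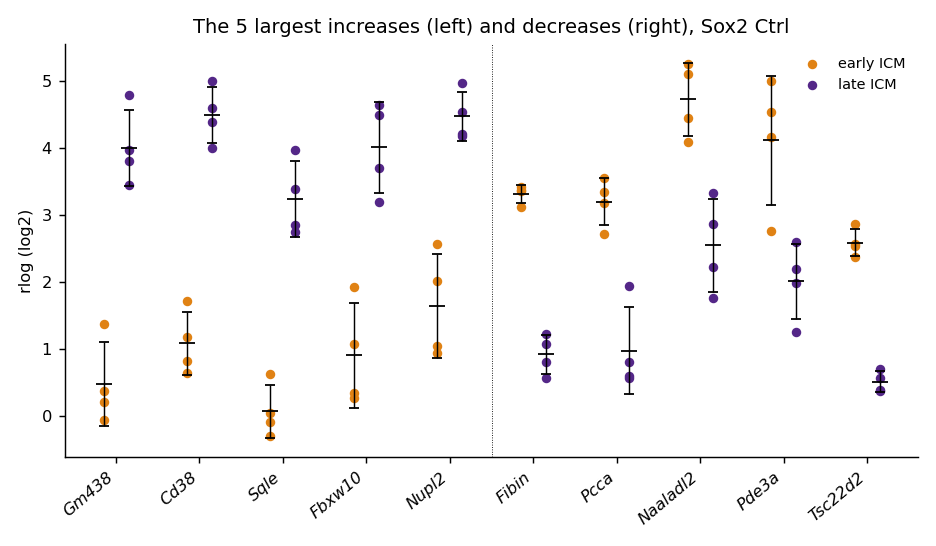
rlog (log2) of the 5 peaks with the largest increase and the 5 with the largest decrease in Sox2 Ctrl ICM, 1 point per library (4 early, 4 late), with the mean as a long bar and the SD as an error bar. Early and late libraries do not overlap at any of the 10 peaks, which the rule for naming them required.

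Sequence words of transcription factors were counted in the 200-bp windows on both strands, as a description of the letters and not of binding. Among peaks that became less open the GATA word AGATAAG had the highest share of the 23 word families. It was in 59 of the 184 decreased peaks (32.1%), in 12 of the 723 increased peaks (1.66%) and in 7.71% of the peaks that were not called. The 4 non-overlapping peaks with this word that fell most are shown because they carry the pattern at large changes (GRCm38, plus strand, capitals mark the GATA word or its reverse complement). They are the windows of *Pcca*, *Naaladl2* and *Pde3a* given above and an intergenic window nearest to *Tnfsf8*, chr4:63916789-63916988.
Pcca: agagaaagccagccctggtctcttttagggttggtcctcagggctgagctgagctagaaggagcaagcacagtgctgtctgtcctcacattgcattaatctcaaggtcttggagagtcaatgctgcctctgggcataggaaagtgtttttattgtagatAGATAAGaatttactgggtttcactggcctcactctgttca
Naaladl2: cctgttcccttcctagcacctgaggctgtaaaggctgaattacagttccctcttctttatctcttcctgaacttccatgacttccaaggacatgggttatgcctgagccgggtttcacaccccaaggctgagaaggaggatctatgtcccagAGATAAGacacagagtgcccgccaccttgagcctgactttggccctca
Pde3a: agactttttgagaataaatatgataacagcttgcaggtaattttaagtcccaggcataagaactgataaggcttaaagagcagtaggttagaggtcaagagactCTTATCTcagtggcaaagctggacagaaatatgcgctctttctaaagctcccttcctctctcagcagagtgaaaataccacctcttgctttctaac
Tnfsf8: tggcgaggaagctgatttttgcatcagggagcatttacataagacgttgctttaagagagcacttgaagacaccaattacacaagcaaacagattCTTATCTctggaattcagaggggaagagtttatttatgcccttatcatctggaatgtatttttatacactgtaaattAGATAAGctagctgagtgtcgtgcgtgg
The *Tnfsf8* window read 4.01, 3.98, 4.59 and 4.25 early and 2.46, 1.77, 2.93 and 1.73 late, a difference of −1.99 (adjusted p = 0.00705). It fell in Oct4 Ctrl too (−1.97, adjusted p = 0.0118), and its difference in Sox2 KO was 0.01 (adjusted p = 0.994).

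The tendency covered GATA peaks well beyond those called. Over all 11748 peaks with the word the median difference was −0.22, against 0.05 for peaks without it, and their mean per library was 2.59 to 2.79 early and 2.46 to 2.56 late, without overlap. The median of the same peaks was −0.25 in Oct4 Ctrl and −0.03 in Sox2 KO. Without each library in turn the GATA share of decreased peaks was 26.7% (without early replicate 4) to 43.2% (without early replicate 3), and the median over all GATA peaks stayed between −0.25 and −0.19. GATA4 and GATA6 are the GATA factors of the primitive endoderm, and GATA2 and GATA3 those of the trophectoderm. Peaks within 10 kb of the 20 primitive endoderm genes on the list did not move together. Of 261 peaks 1 rose and 0 fell (limma), against 0.474% and 0.121% of all peaks. At an unadjusted p under 0.05 in limma, 11 were higher and 13 lower. The median difference was −0.03, and the mean per library was 2.69 to 2.79 early and 2.62 to 2.77 late. Near the 20 trophectoderm genes 0 of 197 peaks were called in limma (16 higher and 1 lower at an unadjusted p under 0.05), and the mean per library was 2.96 to 3.49 early and 3.28 to 3.34 late. In pooled ICMs, fewer cells of a type and less open chromatin per cell cannot be told apart, and the part of either cell type in the result was not tested.

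Other words differed in share between the classes, which was not tested. The TFAP2 word GCCNNNGGC was in 17.4% of decreased, 5.39% of increased and 11.02% of other peaks. Its share of decreased peaks was 31.0% without late replicate 1 and 11.1% without early replicate 3. The AP-1 word TGACTCA was in 11.1% of increased, 3.80% of decreased and 5.90% of other peaks, and the SOX words AACAATG and AACAAAG in 13.4%, 8.15% and 8.04%. The KLF words GGGTGTG and GGGCGTG were in fewer changed peaks of both kinds (13.1% and 13.0%) than of the other peaks (21.3%), as was the OTX word TTAATCC (2.21% and 2.72% against 7.11%). The ETS word CCGGAAG was in 1.94% of increased, 0.0% of decreased and 2.72% of other peaks. Over all peaks with a word, the median difference was −0.006 for TFAP2, 0.04 for SOX, 0.03 for KLF and −0.04 for OTX. It was 0.17 for AP-1 and 0.16 for ETS, with 0.03 over all peaks.

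The composite OCT-SOX word, to which Oct4 and Sox2 bind side by side, was counted in each class. The word searched was CATTGT, any base and ATGCAAA, with at most 2 mismatches in the 13 fixed letters. It was in 43 of the 723 increased peaks (5.95%), 2 of the 184 decreased peaks (1.09%) and 1.24% of the other peaks, and with 3 mismatches allowed in 20.2%, 8.70% and 7.01%. Without each library in turn its share of increased peaks was 4.55% to 8.54%. The 3 increased peaks with the fewest mismatches, and among these the largest increases, are shown because they hold the closest matches to the word (GRCm38, capitals mark the 14-base match, each printed on the strand that reads as the word above).
Ubap2 intron, chr4:41259112-41259311, minus strand: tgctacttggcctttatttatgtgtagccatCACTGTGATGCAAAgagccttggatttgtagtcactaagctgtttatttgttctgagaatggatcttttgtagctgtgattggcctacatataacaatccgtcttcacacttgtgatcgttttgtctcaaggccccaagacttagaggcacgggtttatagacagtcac
Plod2 region, chr9:92930625-92930824, plus strand: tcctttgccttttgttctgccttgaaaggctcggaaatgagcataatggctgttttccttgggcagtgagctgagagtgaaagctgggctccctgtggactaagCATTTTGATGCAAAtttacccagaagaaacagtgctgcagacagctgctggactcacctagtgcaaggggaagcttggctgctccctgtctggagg
Pex13 intron, chr11:23653786-23653985, minus strand: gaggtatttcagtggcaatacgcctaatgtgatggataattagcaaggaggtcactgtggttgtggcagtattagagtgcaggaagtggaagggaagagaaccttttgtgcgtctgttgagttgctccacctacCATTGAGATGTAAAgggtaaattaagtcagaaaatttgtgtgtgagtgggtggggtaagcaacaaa
The matches near *Ubap2* and *Plod2* differ from the word at 1 of the fixed letters, and that near *Pex13* at 2. At *Pex13*, a peroxisome gene, the window read −0.25, 0.07, −0.05 and 0.01 early and 3.65, 2.51, 2.12 and 2.17 late, a rise of 2.67 (standard error 0.44, adjusted p = 0.000159), with 0.07 in Oct4 Ctrl and 0.22 in Sox2 KO. The *Ubap2* window read 0.83, 2.48, 1.19 and 1.71 early and 4.12, 3.79, 3.20 and 3.46 late, a rise of 2.09. Neither window had an early library above a late one. The *Plod2* window, 329382 bp from that gene, rose by 1.95 but read 0.65 in late replicate 3, below 2.18 in early replicate 2.

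Over all 1929 peaks with the OCT-SOX word the median difference was 0.20, against 0.02 for the others. Their mean per library was 2.83 to 2.87 early and 3.02 to 3.16 late, so that the stages did not overlap. The same peaks had a median difference of 0.15 in Oct4 Ctrl and −0.10 in Sox2 KO, in which no Sox2 is made.

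**Figure D3:**
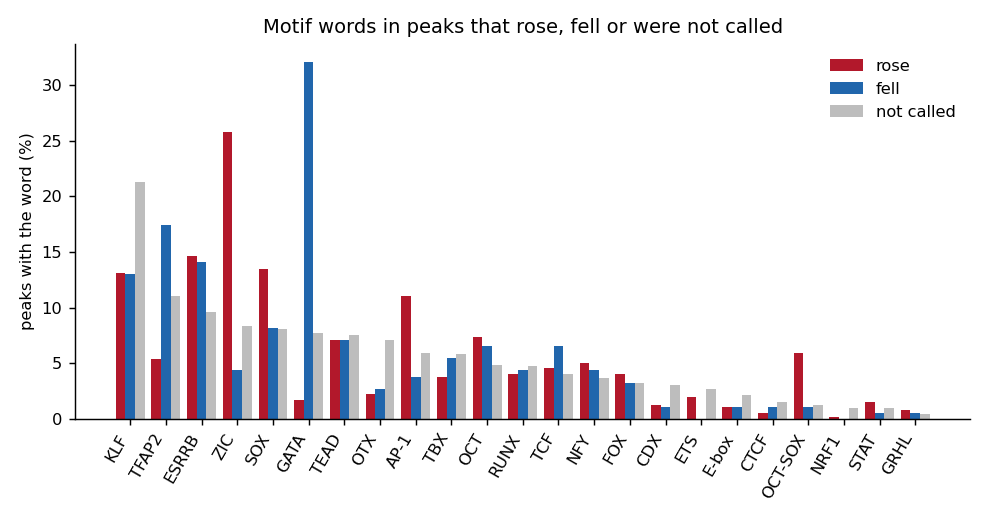
Share of peaks (%) that hold each motif word, for the 723 peaks that rose (red), the 184 that fell (blue) and the 151486 not called (grey) in Sox2 Ctrl ICM, ordered by the share of all peaks. The GATA bar of the fallen peaks (32.1%) and the ZIC bar of the risen peaks (25.7%) stand highest above the grey bars.

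The ZIC word CAGCAGG was in 25.7% of the increased peaks, 4.35% of the decreased and 8.33% of the others, and many of these peaks shared a repeated sequence. Of the 907 called peaks, 266 aligned to another called peak, in 26 groups, and the largest group held 122 increased and 0 decreased peaks. Its reference copy lies between genes, chr8:27658878-27659077, 211307 bp from the start of *Poteg*. The reference copy and the copies with the largest increases are shown so that the shared stretch can be seen (GRCm38, each on the strand that aligns with the reference copy, capitals mark the ZIC word and the ESRRB word AAGGTCA on either strand).
Reference copy, plus strand: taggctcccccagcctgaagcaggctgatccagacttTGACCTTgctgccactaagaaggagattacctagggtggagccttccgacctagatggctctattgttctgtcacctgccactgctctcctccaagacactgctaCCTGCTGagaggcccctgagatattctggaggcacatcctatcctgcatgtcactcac
Copy near Gm438, chr4:144807193-144807392, plus strand: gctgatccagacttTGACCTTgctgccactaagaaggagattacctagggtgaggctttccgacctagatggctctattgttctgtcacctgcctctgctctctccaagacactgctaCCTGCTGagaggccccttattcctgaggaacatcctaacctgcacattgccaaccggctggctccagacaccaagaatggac
Copy near Cd38, chr5:43860760-43860959, minus strand: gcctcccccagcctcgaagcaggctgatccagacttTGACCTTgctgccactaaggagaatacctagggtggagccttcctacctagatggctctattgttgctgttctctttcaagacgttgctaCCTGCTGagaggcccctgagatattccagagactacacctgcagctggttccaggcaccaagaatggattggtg
The copy near *Gm438* aligned over 167 bases at 92.2% identity and that near *Cd38* over 165 bases at 85.5%. The reference copy read 0.48, 0.35, 0.78 and 1.66 early and 3.58, 3.06, 2.91 and 2.37 late, a rise of 2.16 (adjusted p = 0.00299). No name can be given to the family, since no repeat annotation was used, and it was found after the values were seen, so its values are a description.

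In all, 988 peaks (0.648%) aligned to the reference copy over at least 80 bases, with a median of 163 bases and an identity of 81.6%. They lay on 20 chromosomes, 73.1% between genes and 0.709% within 100 bp of a start site, against 7.82% of the other peaks. The ZIC word was in 72.5% of them and the ESRRB word in 53.9%, against 7.99% and 9.37% of the other peaks. Of the 988 copies 118 rose (11.9%) and 0 fell (limma), and they made up 16.3% of all increased peaks. Their shift was broad: the 870 copies that were not called had a median difference of 0.61, with 85.6% above 0, and in 253 copies (25.6%) every late library lay above every early one, as in 3.50% of all peaks. The number of risen copies was 51 without early replicate 2, 35 without late replicate 1, 46 without late replicate 2 and 31 in windows with a mean rlog from the median upward, and it was 134 without early replicate 4. With the copies set aside, 605 increased peaks remained, and 14.7% of these held the ZIC word and 7.27% the ESRRB word (14.7% with the copies).

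The mean rlog over the 988 copies was 2.81, 2.90, 2.97 and 3.38 in the early and 4.12, 3.78, 3.54 and 3.62 in the late Sox2 Ctrl libraries. Every late library was higher than every early one, and early replicate 4 was the highest of its group. Oct4 Ctrl ICMs were at 3.254 to 3.59 early and 3.35 to 3.93 late and overlapped between stages. Sox2 KO ICMs were at 2.01 to 2.44 early and 1.89 to 2.31 late, below all Sox2 Ctrl libraries at both stages. The median difference of the copies was 0.70 in Sox2 Ctrl (0.60 to 0.83 without each library), 0.06 in Oct4 Ctrl, −0.08 in Sox2 KO and −0.32 in Oct4 KO. Reads that map to several places were removed by the authors, so the level of near-identical copies can be understated in all groups.

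**Figure D4:**
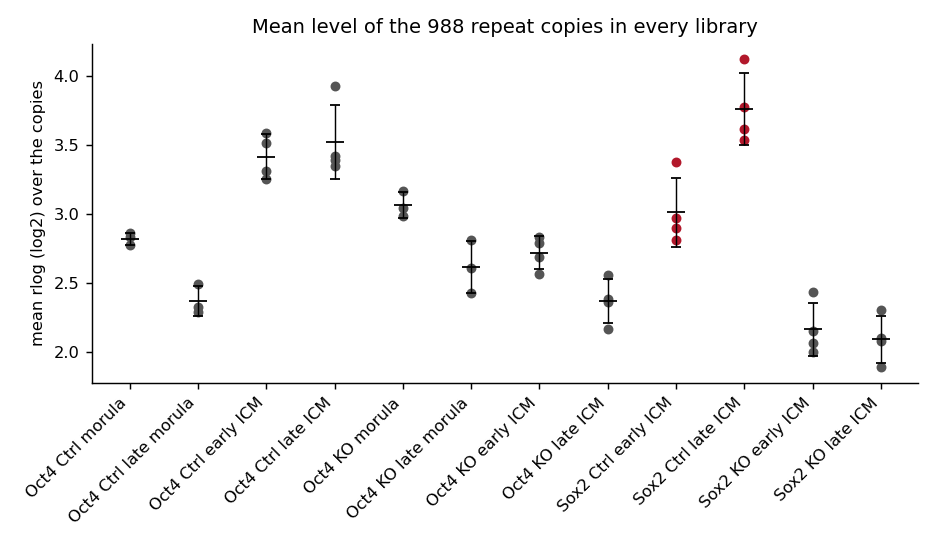
Mean rlog (log2) over the 988 repeat copies in each library, by group, with Sox2 Ctrl in red, the group mean as a long bar and the SD as an error bar (n = 3 for morulae, 4 for ICMs). The Sox2 Ctrl late ICM libraries (3.54 to 4.12) lie above the early ones (2.81 to 3.38), and both Sox2 KO groups (libraries 1.89 to 2.44) have the lowest means, with libraries that overlap those of Oct4 KO late ICMs (2.17 to 2.56) and Oct4 Ctrl late morulae (2.30 to 2.498).

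Genes known for the ICM and its signalling were looked at through 15 lists with 314 genes. Of the 3610 peaks within 10 kb of a listed gene, 27 rose (0.748%, against 0.474% of all peaks) and 0 fell (limma). In the leave-outs 5 to 33 rose, namely 33 without early replicate 1, 9 without early replicate 2, 18 without early replicate 3, 20 without early replicate 4, 8 without late replicate 1, 5 without late replicate 2, 28 without late replicate 3 and 23 without late replicate 4, and at most 2 fell. Among the windows with a mean rlog from the median upward, 8 were called. Of all 57 called peaks that are named by the fixed rule, 46, 25, 39 and 40 were still called without early replicates 1 to 4, and 19, 20, 51 and 49 without late replicates 1 to 4. The fewest stayed called without late replicates 1 and 2 and early replicate 2. The median difference of a list lay between −0.03, for primitive endoderm, and 0.37, for the X inactivation centre, with 0.03 over all peaks and 0.26 for the housekeeping genes.

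Near the 28 naive pluripotency genes, 4 of 331 peaks rose and 0 fell, against 0.474% and 0.121% of all peaks. The median difference was 0.24 and 70.7% of the peaks were higher late. These values were 0.26 and 78.4% for the housekeeping genes, and 52.1% of all peaks were higher late. *Esrrb* encodes a nuclear receptor of the naive network. Its intronic peak, chr12:86501725-86501924, read 2.76, 0.75, 2.14 and 1.65 early and 3.96, 4.202, 3.45 and 3.65 late, a rise of 1.99 (standard error 0.43, adjusted p = 0.00965). A peak in an intron of *Manba*, a lysosomal mannosidase gene on the list (chr3:135546588-135546787), read 2.16, 1.90, 1.23 and 2.37 early and 4.90, 4.47, 3.08 and 3.51 late, a rise of 2.08 (adjusted p = 0.00796). The peak between *Dppa5a*, a gene of naive pluripotent cells, and the oocyte gene *Ooep*, chr9:78374961-78375160, was open at both stages, with 5.07, 4.76, 5.04 and 5.50 early and 6.08, 6.51, 5.96 and 5.82 late, a rise of 1.00. The late libraries were all above the early ones at these 3 peaks, which the rule for naming them required. The other called peak is in an intron of *Tdh*, the gene of threonine dehydrogenase, and rose by 1.60 (adjusted p = 0.0392). The calls at *Esrrb*, *Manba* and *Dppa5a* held in 5, 5 and 4 of the 8 leave-outs, with the highest adjusted p at 0.105 (without early replicate 2), 0.0938 (without late replicate 1) and 0.149 (without late replicate 2).

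The known enhancers of the core factors were open at both stages and none was called. The *Nanog* distal enhancer, chr6:122702565-122702764, read 6.79, 6.59, 6.64 and 6.85 early and 7.17, 7.04, 7.48 and 7.12 late, a difference of 0.48 (adjusted p = 0.198). The peak at the *Nanog* promoter, chr6:122707420-122707619, had a difference of 1.05 (adjusted p = 0.112), from 4.21, 3.15, 4.44 and 4.55 to 5.07, 4.81, 5.64 and 5.04. Late libraries lay above early libraries at both, as in 3.50% of all peaks. The *Pou5f1* enhancer peak CR4, chr17:35503918-35504117, read 5.84 to 7.06 early and 6.66 to 6.97 late (difference 0.22), and the *Sox2* enhancer SRR2, chr3:34653965-34654164, read 2.65 to 4.18 and 3.78 to 4.54 (0.57), with overlapping stages. The *Klf4* peak, chr4:55477519-55477718, was at 5.11 to 5.48 early and 5.65 to 6.15 late (0.62), and the peaks of *Klf2*, *Utf1*, *Pecam1* and *Prdm14* differed by 0.69, 0.55, 0.38 and −0.37, with adjusted p-values from 0.486 to 0.819.

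For the formative and primed state, 1 of 183 peaks rose, against 0.474% of all peaks, and the median difference was 0.05. It lies 6.0 kb from *Foxd3*, a forkhead factor of pluripotent cells (chr4:99650161-99650360), and rose by 1.84 from 1.61, 1.59, 2.54 and 1.46 to 3.80, 4.03, 3.52 and 3.20 (adjusted p = 0.0221, and 0.111 without late replicate 2). The early library at 2.54 was set off from the other early libraries and was still below every late one, which the naming rule required. The peak called on the primitive endoderm list is in an intron of *Runx1*, a runt-domain factor (chr16:92685857-92686056). It read 0.42, 0.86, 1.60 and 0.77 early and 3.54, 3.52, 3.21 and 3.03 late, a rise of 2.41 (adjusted p = 0.000816) that stayed called in all leave-outs.

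Near LIF and FGF genes few peaks were called, with shares close to that of all peaks (0.474% rose). LIF acts through the receptor subunit gp130 and STAT3 and sustains naive cells. Near its 20 genes, 1 of 204 peaks rose, and it lies 2.7 kb from the start of *Il6st*, the gp130 gene (chr13:112461233-112461432), with 0.69, 2.06, 1.03 and 1.57 early and 4.22, 4.44, 3.09 and 3.10 late. The rise was 2.38 (standard error 0.43, adjusted p = 0.000783) and stayed called in every leave-out. Near 31 FGF and ERK genes, the pathway blocked by the inhibitor, 3 of 610 peaks rose. That in *Il17rd*, an inhibitor of FGF signalling (chr14:27067874-27068073), rose by 1.73 from 3.249, 2.11, 2.98 and 1.07 to 4.21, 4.40, 3.96 and 3.76, and lost its call without early replicate 4 (difference 1.30, adjusted p = 0.139). The other called peaks of that list lie inside the 2.96-Mb gene model of the receptor gene *Fgfr2* and nearer to the starts of *Chst15* and *Htra1*. The stronger of them, chr7:132420001-132420200, read −0.13, 0.21, 0.67 and 0.14 early and 3.52, 2.88, 1.49 and 0.75 late, a rise of 1.94 (adjusted p = 0.019, and 0.201 without late replicate 1).

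Near Wnt genes 6 of 306 peaks rose, against 0.474% of all peaks, and 3 were called in the fit to the 8 libraries alone. Of the 6, 4 were at *Tcf7l1*, the gene of a repressor that restrains naive pluripotency genes. *Tcf7l1* had the most increased peaks of all protein-coding genes, 4 of the 33 on it or within 10 kb, with a median difference of 0.53 over the 33. The strongest is intronic, chr6:72765252-72765451, and read 0.12, 0.52, 0.36 and 0.43 early and 2.55, 1.96, 2.88 and 3.20 late, a rise of 2.29 (adjusted p = 0.00208) that stayed called in all leave-outs. The peak 1111 bp from the main start site, chr6:72787388-72787587, read 0.99, 0.53, 0.39 and 1.79 early and 3.12, 3.23, 2.51 and 2.28 late, a rise of 1.86. The peaks at chr6:72699017-72699216 and chr6:72760504-72760703 rose by 1.94 and 1.72. Early and late libraries overlapped at the last of these, which holds an OCT-SOX word. These 3 were called in 4, 5 and 3 of the 8 leave-outs. Their highest adjusted p was 0.0949 (without late replicate 2), 0.0694 (without late replicate 2) and 0.218 (without early replicate 2). At the Wnt co-receptor gene *Lrp5*, chr19:3586146-3586345, a rise of 1.24 (from 3.85 to 4.92 early to 5.46 to 5.91 late, adjusted p = 0.0435) was called in 1 of 8 leave-outs, the highest adjusted p being 0.216 without early replicate 2, and a peak of *Gsk3b* rose by 1.66 with overlapping stages. Near 27 Nodal and BMP genes 0 of 230 peaks were called (18 higher and 8 lower at an unadjusted p under 0.05), and near 22 Hippo genes 1 of 391 rose, in *Nf2* (1.52, from −0.35 to 0.40 early to 1.24 to 2.02 late, adjusted p = 0.0431), a call lost in each of the 8 leave-outs (adjusted p up to 0.194).

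Near 15 genes of DNA methylation, 3 of 216 peaks rose, 2 of them at *Tet2*, and 0 fell (limma), against 0.474% and 0.121% of all peaks. At an unadjusted p under 0.05 in limma, 20 were higher and 2 lower. The median difference was 0.19, against 0.26 for the housekeeping genes. An intronic peak of *Tet2*, which oxidises methylcytosine (chr3:133524856-133525055), read 3.50, 2.81, 1.08 and 3.66 early and 5.65, 5.54, 4.56 and 4.23 late, a rise of 2.23 (adjusted p = 0.00162, and 0.0503 without early replicate 3). The peak 5.6 kb from *Zfp57*, a factor that keeps methylation at imprinted loci (chr17:36995492-36995691), read 0.31, 1.82, 2.16 and 3.67 early and 4.201, 4.16, 3.73 and 3.83 late, a rise of 1.99 (adjusted p = 0.0174, and 0.152 without early replicate 1). Late libraries were above early ones at both, which the rule for naming them required, with a wide early spread at *Zfp57*. Of 201 peaks near 15 Polycomb genes 2 rose, against 0.474% of all peaks. They were at *Kdm2b*, which brings Polycomb complexes to CpG islands, and at *Cbx7*, a reader of methylated H3K27. The *Kdm2b* peak, chr5:122872721-122872920, read 0.52, 0.39, 0.25 and 0.31 early and 3.23, 2.98, 1.78 and 2.18 late, a rise of 2.18 (adjusted p = 0.00705, and 0.0694 without late replicate 1). The *Cbx7* peak, chr15:79946137-79946336, rose by 1.34 from 2.95 to 3.98 early to 4.52 to 5.45 late (adjusted p = 0.0244, and 0.135 without late replicate 2).

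Of 401 peaks near 20 genes of polarity, adhesion and basement membrane 2 rose, against 0.474% of all peaks. In *Cdh1*, the E-cadherin gene (chr8:106606580-106606779), the values were 3.34, 1.69, 3.13 and 1.05 early and 3.50, 4.27, 4.84 and 3.97 late, a rise of 1.84 (adjusted p = 0.0276, and 0.143 without early replicate 4). The laminin receptor gene *Itga6* had a rise of 1.22 at chr2:71814063-71814262 (adjusted p = 0.033, and 0.136 without early replicate 2). The X inactivation centre, the region of *Xist* and its regulators, had the highest median of the lists (0.37 over 57 peaks, 80.7% higher late, beside the 78.4% of the housekeeping genes), and its mean per library was 2.16 to 2.55 early and 2.67 to 2.88 late, without overlap. Here 2 peaks rose, against 0.474% of all peaks. The peak 9.4 kb from *Cdx4*, chrX:103311863-103312062, read 2.05, 3.07, 2.32 and 0.92 early and 4.90, 4.17, 4.57 and 3.996 late, a rise of 2.32 (adjusted p = 0.00208) that stayed called in all leave-outs. The other, chrX:103472428-103472627, lies in *Xist*, the RNA that coats the inactive X, and in its antisense gene *Tsix*. It read 1.71, 0.47, 2.15 and 0.39 early and 3.60, 3.747, 2.29 and 2.48 late, a rise of 1.85 (adjusted p = 0.0272, and 0.159 without late replicate 2). Near the 39 Hox genes 1 of 86 peaks rose, within 10 kb of *Hoxc12* and *Hoxc13*, with overlapping stages.

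Promoters took little part. The largest increase within 100 bp of a start site was at *Vwa5a*, chr9:38718939-38719138, with 1.26, 0.93, 1.65 and 0.83 early and 3.74, 3.72, 2.96 and 2.58 late, a rise of 2.08 (adjusted p = 0.00705, and 0.0615 without late replicate 1). *Krtdap*, *Nynrin* and *8030474K03Rik* followed with rises of 1.74, 1.71 and 1.66, which missed the threshold without late replicate 1 (adjusted p = 0.184), late replicate 4 (0.0543) and early replicate 3 (0.0655). The 2 promoter peaks that fell were those of *Lrrc1*, chr9:77543907-77544106, by 1.90 from 3.11, 3.48, 3.15 and 3.42 to 1.00, 1.41, 1.46 and 1.70, and of *Metap2*, a methionine aminopeptidase gene (chr10:93891134-93891333), by 1.53 from 4.26, 4.04, 3.88 and 3.73 to 1.08, 1.53, 3.60 and 3.60. At *Metap2* late replicates 3 and 4 were close to the early libraries, and without late replicate 1 its adjusted p was 0.352. At *Lrrc1* all late libraries were lower, which the naming rule required, and its adjusted p was 0.117 without late replicate 1.

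Genes with several increased peaks after *Tcf7l1* were *Cd38* (3 of 8 peaks), *Pla2g10*, a secreted phospholipase gene (3 of 12, of which 2 are repeat copies), *Tns1*, the gene of the adhesion protein tensin (3 of 40), and *Gm20388*, whose 4.43-Mb model spans other genes (3 of 542). The *Cd38* peaks 7.3 kb and 0.4 kb from its start rose by 1.82 and 1.66, and both rose in Oct4 Ctrl as well (1.74, adjusted p = 0.0469, and 1.84, adjusted p = 0.0251), whereas the repeat copy 7.7 kb away had a difference of 1.03 there (adjusted p = 0.353). Decreases were spread out. Only *Fam83b* had 2, at chr9:76554055-76554254 (from 4.88 to 5.47 early to 3.62 to 4.52 late, −1.18) and chr9:76566285-76566484 (2.82 to 4.54 early, 1.48 to 2.26 late, −1.63), and the former holds the GATA word. Genes tied at 1 decreased peak include *2010300C02Rik* (−1.48), *9330182L06Rik* (−1.36), *AK157302* (−1.81) and *Abcd3*, a peroxisomal transporter gene (−2.06).

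The same peaks were then read in the other lines, whose libraries did not enter the stage difference but did enter the authors' joint rlog and the spread that limma estimated over all groups. In Oct4 Ctrl the 723 peaks had a median stage difference of 0.51, with 84.4% above 0, and the 184 peaks one of −0.59, with 83.2% below 0, while 51.1% of the peaks not called were above 0. Oct4 Ctrl itself had 120 increased (0.0787%) and 274 decreased peaks (0.18%). Increased in both lines were 20 peaks, 2.77% of the Sox2 Ctrl and 16.7% of the Oct4 Ctrl increases, and decreased in both were 12, 6.52% and 4.38%. For no peak (0.0%) did the stage change of Sox2 Ctrl differ from that of Oct4 Ctrl by a test of the difference (limma, 0 at an adjusted p under 0.05, smallest 0.101, and 10688 peaks at an unadjusted p under 0.05), which does not show that the lines changed alike. Without early replicate 2 it called 8 peaks, and without early replicate 4 or late replicate 3 it called 2.

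**Figure D5:**
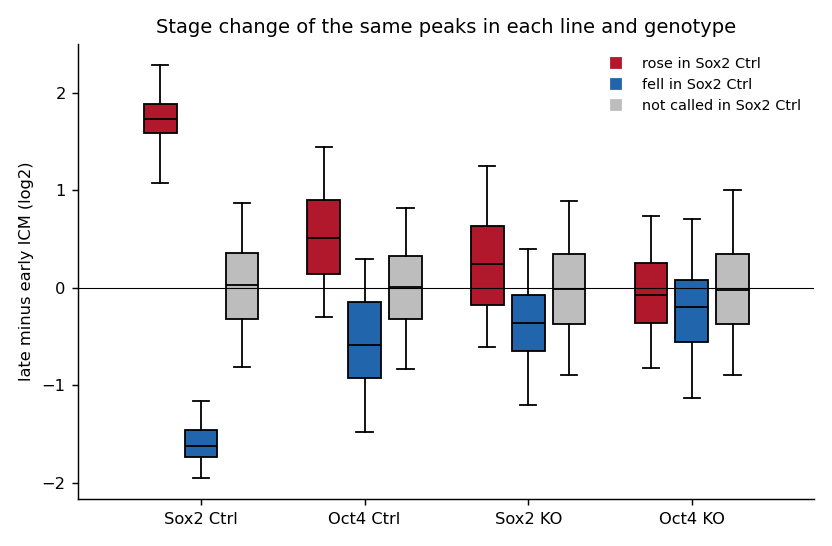
Late minus early difference (log2) in each line and genotype for the peaks that rose (red), fell (blue) or were not called (grey) in Sox2 Ctrl, as boxes from the lower to the upper quartile with the median, and whiskers from the 5th to the 95th percentile. The risen peaks have medians of 1.73, 0.51, 0.24 and −0.08 and the fallen peaks of −1.62, −0.59, −0.36 and −0.20 in Sox2 Ctrl, Oct4 Ctrl, Sox2 KO and Oct4 KO, and the Sox2 Ctrl values chose the peaks.

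In Sox2 KO the increased peaks had a median stage difference of 0.24 (62.7% above 0) and the decreased peaks −0.36 (77.2% below 0). Of the peaks not called, 48.9% were above 0 and 51.1% below 0 in Sox2 KO. Sox2 KO had 507 increased (0.333%) and 102 decreased peaks (0.0669%) of its own, of which 22 (4.34%) and 4 (3.92%) were also called in Sox2 Ctrl, 3.04% and 2.17% of its calls. These counts depend on the fit, since Sox2 KO had 291 and 67 after quantile normalization and 211 and 54 without the trend of limma's variance prior with mean rlog, and the Oct4 Ctrl decreases numbered 104 without the trend. In Oct4 KO the medians were −0.08 and −0.20. The order of Oct4 Ctrl and Sox2 KO was kept when each Sox2 Ctrl library was left out, with 0.43 to 0.64 in Oct4 Ctrl and 0.10 to 0.27 in Sox2 KO for the increased peaks. For the decreased peaks the medians were −0.72 to −0.37 in Oct4 Ctrl, nearest to 0 without early replicate 2, and −0.36 to −0.08 in Sox2 KO, nearest to 0 without late replicate 2.

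A test of the difference between the Sox2 KO and the Sox2 Ctrl stage change called 29 peaks (0.019%), with 25 lower and 4 higher in KO, and 12511 at an unadjusted p under 0.05. The test uses the Sox2 Ctrl libraries of the stage comparison, so its calls are no independent support for that comparison, and both changes are given. The count was 7 without late replicate 1, 15 without late replicate 2 and 50 without late replicate 3. It was 4 in a fit to the 16 libraries compared and 0 in windows with a mean rlog from the median upward. Without the trend, 41 were lower and 6 higher. With the replicate number within each genotype as a block, the fit to the 16 libraries called 0. That block joined early with late libraries, and a block joining Ctrl with KO libraries was not fitted. The *Fbxw10* peak differed most, by −3.62 (standard error 0.60, adjusted p = 0.00388), with a rise of 3.11 in Ctrl and a difference of −0.51 in KO, where the 8 libraries lay between −0.12 and 1.58. The *Cd38* repeat copy differed by −3.43 (adjusted p = 0.00786, with 3.41 in Ctrl and −0.02 in KO) and an intronic peak of *Lsamp*, a neuronal adhesion gene, chr16:41640961-41641160, by −2.84 (adjusted p = 0.0122, with 2.43 in Ctrl and −0.41 in KO). In the latter the Ctrl libraries were at −0.71, −0.47, −0.57 and −0.53 early and 2.15, 2.42, 1.64 and 1.23 late. In the other direction, an intronic peak of the annexin gene *Anxa3*, chr5:96802289-96802488, fell in Ctrl from 3.35, 3.86, 2.52 and 3.40 to 0.94, 2.29, 0.75 and 1.72 and had a difference of 1.34 in KO, so that the stage changes differed by 3.20 (adjusted p = 0.0128). The peaks of *Sgpp2* and *Cap1*, genes of a sphingolipid phosphatase and an actin regulator, differed by 2.88 and 2.18, and neither was called in Ctrl. At *Sgpp2* the difference was −0.67 in Ctrl and 2.21 in KO (adjusted p = 0.00217 in KO). At *Cap1* it was −1.05 in Ctrl and 1.13 in KO (adjusted p = 0.0579 in KO). Of the 29 peaks 6 were repeat copies. At an unadjusted p under 0.05 the stage change was lower in KO in 32.1% of the copies and in 4.26% of the other peaks. Of the 317 copies lower in KO, 98 were among the 118 that rose in Sox2 Ctrl and 219 were not called. The repeat was found among peaks called in Sox2 Ctrl, and this difference subtracts the Sox2 Ctrl change. The higher share thus follows in part from how the repeat was found and is no separate support.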

How the data were processed

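ATAC-seq was analysed in pools of 20 to 40 ICMs or morulae, 44 libraries in 12 groups. Per the study's methods, the authors trimmed reads with SeqPurge, aligned them to mm10 with Bowtie2, removed duplicates with Picard, kept reads at a mapping quality of 30 or more off chromosomes Y and M, shifted ends for Tn5, called peaks with MACS2, merged summits into 200-bp windows found in at least 2 replicates and counted insertions with BEDTools. Versions are not given in the sources used here. The deposited values are rlog (log2) values that the authors made from these counts with DESeq2 over all libraries. A deposited table of group means was not used.

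All 152393 peaks were fitted in limma 3.58.1 (R 4.3.3) with 1 mean per group and eBayes with a trend, on 32 residual degrees of freedom, since rlog values cannot enter a count test. Tests were two-sided with Benjamini-Hochberg adjustment over all peaks and a threshold of 0.05, and every adjusted p in the text comes from this limma fit or its stated alternative. The method was tested on simulated data. The study's methods call the libraries biological replicates without saying whether they came from separate matings, so p-values measure the spread between pools. Peaks were matched to GENCODE vM21 on GRCm38.p6 (mm10) and to listed genes within 10 kb. Words were counted with Python 3.11.15, pandas 2.3.3 and numpy 2.4.6, sequences read with pysam 0.24.0, repeat copies found with blastn 2.17.0 (e-value under 1e-10, at least 80 bases), groups made with networkx 3.6.1, exact permutation done by full enumeration and figures drawn with matplotlib 3.10.9. The comparison, gene lists, words and naming rules were chosen with earlier results of these data known. Peaks were named at the 3 best non-overlapping called genes of each list, the 5 largest changes each way, the 5 genes with most called peaks each way, promoters, *Sox2*, *Pou5f1* and the study's enhancers, and the largest differences between genotypes. The repeat was found after the values were seen. Alternatives changed the libraries fitted, normalization, filter, threshold, trend, replicate block, distances and mismatches, and left out each library.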

Additional observations from a re-analysis of the deposited data

Results flagged for a closer look

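In 11 of 184 groups of 4 libraries 1 library lay beyond Dixon's 95% critical value, which chance gives in about 1 of 20 groups. Among called peaks these were early replicate 3 near *Foxd3* (rlog 2.54), early replicate 4 at *Cbx7* (2.95), late replicate 3 at *Pcca* (1.93), late replicate 4 at the *Tcf7l1* peak chr6:72760504-72760703 (2.85) and late replicate 3 at the *Tns1* peak chr1:74111410-74111609 (0.75, with the other late libraries at 3.31 to 3.53). Among peaks that were not called they were early replicate 2 at *Pecam1* (5.52), late replicate 1 just upstream of *Sox2* (2.35) and early replicate 2 downstream of *Sox2* at chr3:34653246-34653445 (1.60). Among means they were early replicate 2 over the 723 increased peaks (1.80), late replicate 1 near primitive endoderm genes (2.62) and early replicate 1 near Wnt genes (2.95).

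The stage change differed between Sox2 KO and Sox2 Ctrl at 29 peaks by the test of the difference (limma, adjusted p under 0.05). It differed at 0 peaks with the replicate number within each genotype as a block in the 16 libraries. It was higher in KO by 3.20 at *Anxa3*, 2.88 at *Sgpp2* and 2.18 at *Cap1*, and the KO minus Ctrl difference was −3.62 near *Fbxw10*, −3.43 near *Cd38* and −2.84 at *Lsamp*.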

How the results depend on the processing

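Called peaks numbered 907 (723 up, 184 down). They were 596 (77 down) in the 8 libraries alone, 275 (201 and 74) at or above the median rlog, and 192 (175 and 17) at an adjusted p under 0.01, and decreases were 288 after quantile normalization. Without each library the count was 193 to 1064, with 164 to 758 up and 29 to 306 down. The replicate number did not pair early with late Sox2 Ctrl libraries (correlations of deviations −0.105, −0.00014, 0.030 and −0.058), and the replicate block gave 500 calls (446 and 54). The line difference of 0 was 4 with the block and 0 to 8 without each library. The 29 genotype differences were 4 in 16 libraries, 16 after quantile normalization, 0 at or above the median rlog, 0 with the block and 7 to 50 without each library. The separation was 1.01 to 1.14 without each library. Increased peaks near listed genes (27) were 47 within 50 kb, 8 at or above the median rlog and 5 to 33 without each library. Proximal shares within 1 kb were 12.9%, 7.61% and 19.5% for increased, decreased and other peaks. The OCT-SOX share was 20.2% with 3 mismatches and 4.55% to 8.54% without each library, the GATA share 26.7% to 43.2%, the TFAP2 share 11.1% to 31.0% and the ZIC share 21.1% to 35.4%. Risen copies (118) were 31 at or above the median rlog and 35 to 134 without each library. The cause of these changes was not tested. No called result changed direction under any alternative run. Threshold, size limit and trend leave a difference as it is, and leaving out 1 library cannot reverse one without overlap. Leave-outs of word shares and list counts, and all repeat alternatives, were chosen after seeing the data. Depth is unknown.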
